A study of Mus musculus with 15 samples.

Results

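The genes described here are 36 proliferation genes, 16 that act in DNA synthesis (S phase) or its preparation and 20 that act in mitosis. They were taken by gene symbol from a table of 20696 genes, in which all 36 were found, and 32 of them were abundant enough to test. Gene expression was measured by bulk RNA sequencing of hematopoietic stem cells (HSCs), the blood-forming cells of the bone marrow, which were purified by flow cytometry from mice. The study set 3 groups of 5 libraries side by side. Young controls came from mice of 3 months, aged controls from mice of 18 months, and the remaining libraries from mice of 18 months labelled as lacking Thbs1, the gene of the secreted matrix protein thrombospondin-1. The labels give no further genotype to the controls. The sources used here name neither the strain, nor the sort gate, nor the kind of Thbs1 allele. Whether the 5 libraries of a group represent 5 animals is not stated in the labels, and the p-values then describe only the spread among libraries, which may in part be technical.

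Most adult HSCs rest outside the cell cycle, and a minority divides at any time. When a cell commits to division, cyclin E with CDK2 releases E2F transcription factors from the retinoblastoma proteins, and E2F turns on the genes for origin licensing, nucleotide supply and DNA synthesis. Mitotic genes follow later, driven by B-MYB and FOXM1 together with the MuvB complex, which in resting cells keeps the same genes off as part of the DREAM complex. The promoters of the first class are known for E2F sites, and those of the second for CCAAT boxes and the cell cycle genes homology region (CHR) element.

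Of the 36 genes, 30 had a RefSeq promoter (build GRCm38.p6) from 250 bases before to 50 bases after the start of the gene. No entry was matched for Ccne2, Mcm4, Ccna2, Aurkb, Tpx2 and Foxm1. Both strands were searched for CCAAT, for the CHR letters TTTGAA or TTCGAA (the second is its own reverse complement) and for the E2F letters TTTCGCGC, TTTGGCGC, TTTCCCGC or TTTGCCGC. CCAAT was found in 10 of 14 S-phase promoters (71.4%) and in 14 of 16 mitotic promoters (87.5%), against 41.9% of the promoters of all 13341 genes of the table that had one. The CHR letters were found in 4 of 14 S-phase promoters (28.6%) and 13 of 16 mitotic promoters (81.2%), against 17.6% of all. When only the bases before the start were searched, the mitotic share was 50% and that of all genes 15.8%. The E2F letters were found in 7 of 14 S-phase promoters (50%) and 1 of 16 mitotic promoters (6.25%), against 4.08% of all. These are matches of letters in a window, described without a test.

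The 160 bases before the start are shown for the 4 genes that passed a test between groups (Cdk1, Top2a, Pcna and Rrm2) and for an example of each promoter type (Cdc20 and Mcm6). The genes and the length shown were chosen after the matches were seen. Capitals mark matches to the searched letters on either strand.
Cdk1, chr10:69352913-69353072, minus strand: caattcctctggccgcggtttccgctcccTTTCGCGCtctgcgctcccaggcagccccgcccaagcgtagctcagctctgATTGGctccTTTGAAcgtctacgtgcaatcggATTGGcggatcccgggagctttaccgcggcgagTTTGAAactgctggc
Top2a, chr11:99024190-99024349, minus strand: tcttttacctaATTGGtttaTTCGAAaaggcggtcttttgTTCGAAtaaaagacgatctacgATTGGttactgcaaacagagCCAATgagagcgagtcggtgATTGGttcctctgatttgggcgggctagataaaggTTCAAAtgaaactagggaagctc
Cdc20, chr4:118437344-118437503, minus strand: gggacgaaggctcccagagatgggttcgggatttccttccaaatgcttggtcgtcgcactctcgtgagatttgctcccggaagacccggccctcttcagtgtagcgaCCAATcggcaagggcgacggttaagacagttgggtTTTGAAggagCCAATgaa
Pcna, chr2:132253181-132253340, minus strand: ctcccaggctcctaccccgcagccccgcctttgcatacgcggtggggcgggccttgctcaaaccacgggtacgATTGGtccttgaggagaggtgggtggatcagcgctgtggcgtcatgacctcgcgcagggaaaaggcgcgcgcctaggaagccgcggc
Rrm2, chr12:24708094-24708253, plus strand: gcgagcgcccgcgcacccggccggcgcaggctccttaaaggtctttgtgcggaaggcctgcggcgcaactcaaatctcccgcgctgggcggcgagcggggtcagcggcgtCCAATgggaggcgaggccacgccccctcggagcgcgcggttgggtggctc
Mcm6, chr1:128359706-128359865, minus strand: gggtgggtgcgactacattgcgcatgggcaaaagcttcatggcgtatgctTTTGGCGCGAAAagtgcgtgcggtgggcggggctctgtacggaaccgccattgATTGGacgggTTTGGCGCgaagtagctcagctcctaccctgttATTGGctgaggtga
Cdk1 is the mitotic gene with an E2F match, and its promoter also holds CHR and CCAAT letters. In the promoter of Mcm6, the capital run TTTGGCGCGAAA holds 2 E2F matches that overlap on opposite strands. Pcna and Rrm2 have CCAAT letters and no other capital in the stretch shown.

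The recovered library sizes lay between 17224800 and 29644300 reads. All 13 HSC marker genes found in the table were abundant enough to test, and their FPKM values summed to 940 to 994 for the young group, 1150 to 1230 for the aged controls and 787 to 1010 for labelled knockouts (FPKM counts fragments per kilobase of transcript, scaled to the size of the library). Markers of other blood cells were also present, with sums of 360 to 472, 283 to 1950 and 165 to 336 for 8 megakaryocyte genes and of 93.4 to 192, 77.7 to 392 and 53.6 to 255 for 10 erythroid genes. The sums of 10 myeloid progenitor and neutrophil genes were 93.0 to 145, 197 to 382 and 162 to 384. For 7 B cell genes the sums were 35.6 to 47.2, 37.8 to 65.2 and 30.7 to 57.2, and for 6 T and NK cell genes 53.4 to 104, 67.7 to 135 and 29.2 to 61.2. Sums of 8 macrophage and dendritic and of 8 endothelial and stromal genes did not exceed 17.1 FPKM in any library. No marker list had a gene at 0 in every library. Genes of ribosomal RNA took 2.16% of the reads in labelled knockout 2 and 0.68% in labelled knockout 5, against 0.16% to 0.37% in the other 13 libraries.

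Both checks of the labels went against them, while a letter in the library names followed the sample titles. Thbs1 was at 2.53, 1.69, 17.9, 12.7 and 17.2 FPKM in labelled knockouts 1 to 5, at 0.2, 0.01, 0.62, 8.75 and 4.9 FPKM in aged controls 1 to 5 and at 0.76, 0.7, 13.4, 2.42 and 3.95 FPKM in young controls 1 to 5. Its level was thus not lower in the libraries labelled knockout than in the aged controls (difference 1.73 on the log2(FPKM + 1) scale, exact two-sided permutation p = 0.111, where 0.00794 is the smallest p possible). A transcript can remain where only part of a gene is deleted, and the table does not show which part the reads come from. Each column also carries 2 names, and for 10 of 15 columns the library name and the sample title point to samples of different groups. The library names also hold a letter, A in every young control by title, B in every aged control and C in every labelled knockout. Groups follow the titles here. When they were taken from the library names instead, the direction of the change with age turned, as given below.

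Levels per transcript length spanned more than 2 orders of magnitude across the 36 genes. The highest mean levels in young controls were those of S-phase genes that encode the replicative helicase MCM2-7, at 155 ± 18.1 FPKM (SD, n = 5) for Mcm6, 147 ± 12.3 FPKM for Mcm3 and 114 ± 7.12 FPKM for Mcm5. Among mitotic genes, Cdc20, the activator of the anaphase-promoting complex, was highest at 74.6 ± 7.42 FPKM and Ccnb2, a B-type cyclin, followed at 60.4 ± 4.74 FPKM. At the other end stood Mki67, the gene of the widely used proliferation marker Ki-67. It was at 0.54, 0.54, 0.25, 0.15 and 0.43 FPKM in young controls 1 to 5, at 0.13, 0.27, 0.27, 0.19 and 0.21 FPKM in aged controls 1 to 5 and at 0.32, 0.71, 0.21, 0.19 and 0.05 FPKM in labelled knockouts 1 to 5. The 3 groups overlapped, and 12 to 139 reads per library stood behind these values. The SD was 46% of the mean in young controls, 27.6% in aged controls and 84.6% in labelled knockouts. No difference in Mki67 was detected, and whether depth or the spread among libraries limited this was not tested. Ccne2, Bub1 and Hmmr also averaged under 1 FPKM. Without a filter on low values none of these 4 passed a test between groups (limma, smallest adjusted p = 0.299 for Ccne2, aged against young controls). Mean level was lower for longer transcripts across the 36 genes (Spearman rho -0.41) and, less so, across the 11345 tested genes (rho -0.17), given as a description since genes are not independent.

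**Figure D1:**
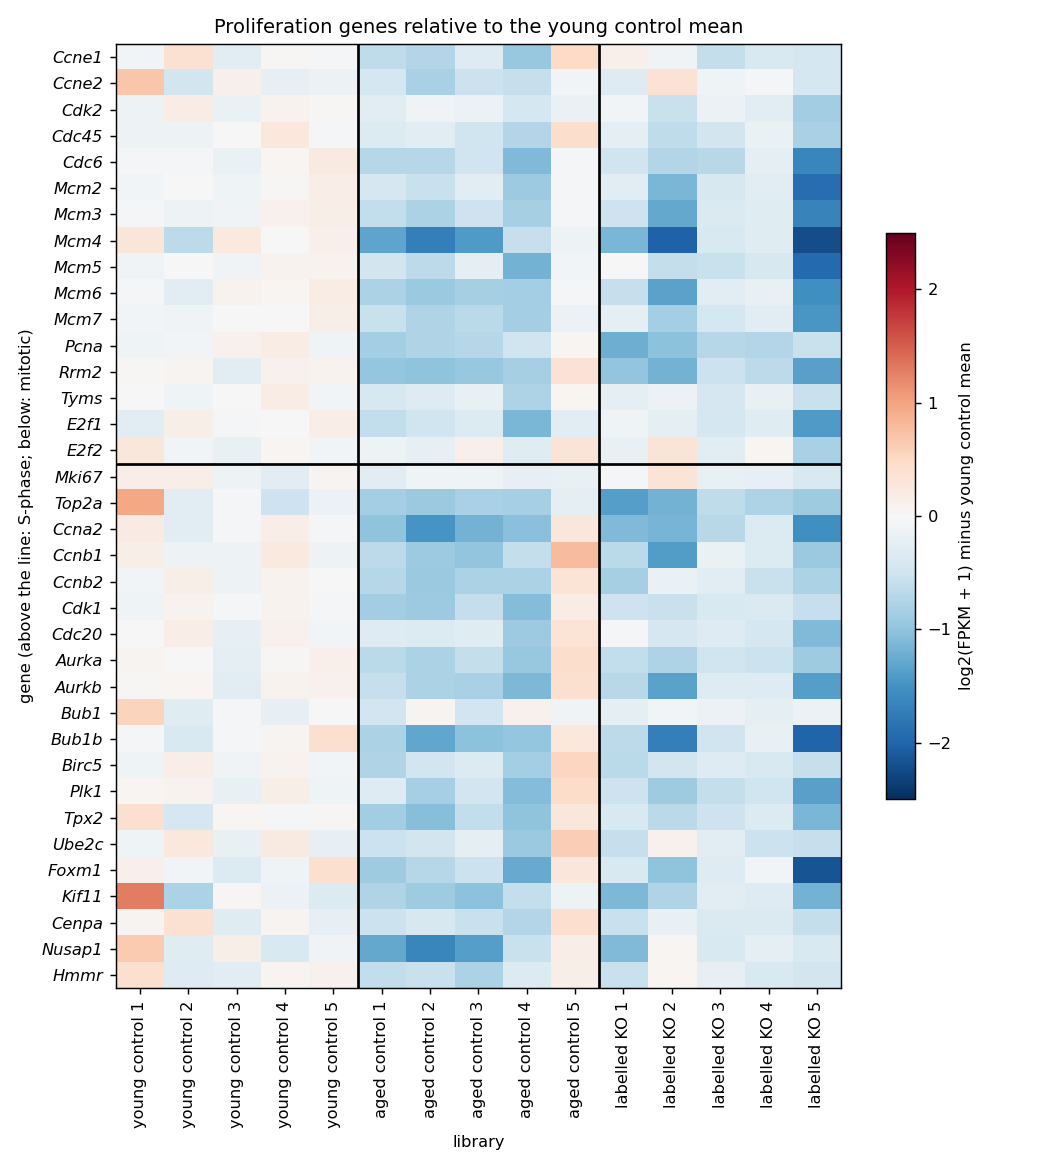
Each cell is the log2(FPKM + 1) level of a gene in a library minus the mean of the 5 young controls, with libraries in columns by group, S-phase genes above the horizontal line and mitotic genes below it. Blue is lower and red higher than the young mean: aged controls 1 to 4 are mostly blue, aged control 5 is mostly pale or red, and labelled knockout 5 holds the darkest blue cells.

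Proliferation genes of both classes had lower mean levels in aged than in young controls, and the number that passed rested on single libraries. All 32 tested genes had a lower mean log2 level with age, a direction shared by 52.2% of all 11345 tested genes. The median difference was -0.55 for the 15 tested S-phase genes and -0.58 for the 17 tested mitotic genes, against -0.02 for all genes, on the log2(FPKM + 1) scale. Cdk1 alone passed the test (limma, Benjamini-Hochberg adjusted p under 0.05 over all tested genes), while 1.23% of all tested genes passed as lower and 3.18% as higher. Without adjustment, 19 of 32 had a p under 0.05 as lower, against 9.98% of all tested genes. In bulk RNA, fewer dividing cells and less RNA per dividing cell cannot be told apart.

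Cdk1 encodes the kinase that drives entry into mitosis. It was at 23.2, 26.6, 24.6, 26.9 and 24.1 FPKM in young controls 1 to 5, at 13.3, 12.9, 16.1, 11.3 and 28.5 FPKM in aged controls 1 to 5 and at 17.3, 16.7, 19.0, 19.2 and 16.4 FPKM in labelled knockouts 1 to 5. Aged controls 1 to 4 lay below every young control and aged control 5 above every young control, while the labelled knockouts all lay below the young controls. Cdk1 fell with age by 0.66 on the log2(FPKM + 1) scale (SE 0.18, limma adjusted p = 0.0434). When each of the 15 libraries was left out in turn, this call ended in 11 cases (limma adjusted p 0.052 to 0.136). It held without labelled knockout 2, 4 or 5 (adjusted p 0.048, 0.048 and 0.038), which share the fit though not the comparison, and without aged control 5, where the difference was -0.86 (adjusted p = 0.000272).

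The same split within the aged controls ran through nearly all the genes. Aged controls 1, 2, 3 and 4 had 33, 33, 33 and 32 of the 36 genes below every young control, where 31.5%, 33.3%, 34.4% and 20.3% of all tested genes lay there. In aged control 5, 3 of 36 lay below every young control (16.8% of all tested genes) and 15 lay above every young control, 4 of them S-phase and 11 mitotic (21.4% of all tested genes). It was the highest of the 5 aged controls for 33 of 36 genes, the exceptions being Cdk2, Mki67 and Bub1. Other markers did not all return to young levels in this library. Its 7 multipotent progenitor markers summed to 86.9 FPKM, against 79.7 to 82.4 in aged controls 1 to 4 and 117 to 142 in young controls. Its 8 megakaryocyte markers summed to 1950 FPKM, against 283 to 780 in aged controls 1 to 4, and its 10 erythroid markers to 392 FPKM, against 77.7 to 134. Pf4 alone made up 1579 FPKM of the megakaryocyte sum. Itga2b, Gp1bb, Gp1ba and Ppbp were also the highest of the aged controls, while Gp9 (107 FPKM) lay within the range of the others. Car1 made up 299 FPKM and Klf1 37.9 FPKM of the erythroid sum, and Epor and Hbb-bt were also the highest. Hba-a1 (2.43 FPKM) and Hbb-bs (5.36 FPKM) were the lowest of the aged controls, and Alas2 was at 0. The part of these genes, or of any cell type, in the result was not tested.

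Without aged control 5, 20 of 32 genes passed as lower with age, 7 S-phase and 13 mitotic, against 3.28% of all tested genes. The medians were then -0.66 for S-phase and -0.81 for mitotic genes. Because aged control 5 was the highest aged control for nearly all these genes, leaving it out lowers the aged means by construction. The count and medians without it are therefore a description only. Leaving out libraries of the third group leaves the differences as they are and changes the shared estimate of the spread and, slightly, which genes are tested. Without labelled knockout 5, 6 genes passed as lower with age (Cdc6, Mcm7, Pcna, E2f1, Ccna2 and Cdk1), against 2.06% of all tested genes. Without labelled knockouts 2 and 5, 10 passed, 8 S-phase and 2 mitotic, against 3.51%. The count was 0 without any single young control, without aged control 1, 2, 3 or 4 and without labelled knockout 1 or 3. In these settings 0.599% to 1.4% of all tested genes passed as lower, against 1.23% with all libraries. The coefficient of variation also describes the spread. For Cdk1 it was 6.35% in young controls, 42.4% in aged controls and 7.4% in labelled knockouts, and for Ccnb1, a cyclin partner of CDK1, 13.3%, 67.4% and 34.4%.

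**Figure D2:**
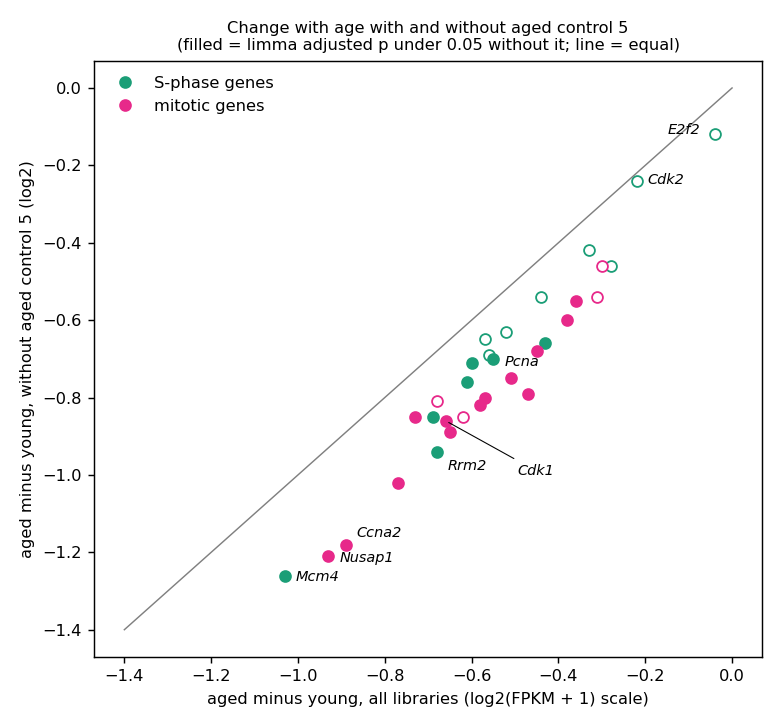
Each point is 1 of the 32 tested genes, with its difference between aged and young controls from all libraries on the x axis and without aged control 5 on the y axis, both on the log2(FPKM + 1) scale. All points lie below the line of equality, and the 20 filled points passed the test without that library. As aged control 5 was the highest aged control for nearly all these genes, leaving it out lowers the points by construction.

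In the S-phase class, the largest difference was that of Mcm4, a subunit of the replicative helicase. It was at 47.8, 24.2, 45.4, 38.01 and 41.8 FPKM in young controls 1 to 5, at 14.8, 10.99, 13.7, 25.4 and 34.9 FPKM in aged controls 1 to 5 and at 16.9, 8.75, 29.2, 30.9 and 7.45 FPKM in labelled knockouts 1 to 5. Young control 2 was the lowest of its group and lay within the aged range. The difference with age was -1.03 (SE 0.36, limma adjusted p = 0.119) and did not pass. The other helicase subunits differed by -0.44 for Mcm2, -0.56 for Mcm3, -0.52 for Mcm5, -0.69 for Mcm6 and -0.60 for Mcm7, none of them past the test with all libraries. Cdc6, which loads the helicase, differed by -0.61 and Cdc45, which activates it, by -0.28.

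Mcm7 and E2f1 were the 2 of 36 genes whose aged controls all lay below all young controls, a pattern held by 2.59% of all tested genes. E2f1 encodes an activating E2F factor. Its young controls 1 to 5 were at 26.5, 35.7, 31.4, 32.7 and 36.4 FPKM, its aged controls 1 to 5 at 20.9, 22.6, 25.3, 14.2 and 26.2 FPKM and its labelled knockouts 1 to 5 at 30.1, 27.0, 23.6, 26.1 and 11.5 FPKM. Aged control 5 came just under the lowest young control, and the labelled knockouts overlapped both groups. The difference with age was -0.57 (SE 0.21, limma adjusted p = 0.145). Without labelled knockout 5 in the fit, E2f1 (SE 0.15, limma adjusted p = 0.0263) and Mcm7 (SE 0.14, adjusted p = 0.0153) passed with age. E2f2, its close relative, differed by -0.04, and Cdk2, the kinase partner of cyclin E, by -0.22, the smallest differences among the tested genes. Ccne1, a cyclin E gene, differed by -0.43.

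Genes of DNA synthesis and nucleotide supply followed. Pcna encodes the sliding clamp of DNA polymerase. It was at 82.1, 84.6, 95.4, 101 and 82.9 FPKM in young controls 1 to 5, at 48.9, 52.6, 54.1, 62.6 and 92.1 FPKM in aged controls 1 to 5 and at 37.5, 43.4, 53.7, 52.8 and 60.2 FPKM in labelled knockouts 1 to 5. Aged control 5 lay inside the young range, and every other library of 18 months lay below it. The difference with age was -0.55 (SE 0.16, limma adjusted p = 0.067). Rrm2, the small subunit of ribonucleotide reductase, was at 33.5, 34.4, 27.2, 35.4 and 34.9 FPKM in young controls 1 to 5, at 16.4, 15.9, 16.7, 18.0 and 42.3 FPKM in aged controls 1 to 5 and at 16.1, 13.9, 22.3, 20.7 and 12.3 FPKM in labelled knockouts 1 to 5. Here aged control 5 exceeded all young controls. Rrm2 differed with age by -0.68 (limma adjusted p = 0.1) and Tyms, thymidylate synthase, by -0.33.

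Among mitotic genes, the cyclins and kinases of mitotic entry had lower means in aged controls. Ccna2, cyclin A2, differed by -0.89 (SE 0.27, limma adjusted p = 0.0702), Ccnb1 by -0.47 and Ccnb2 by -0.57. Ccnb1 was at 23.5, 19.2, 19.2, 24.98 and 19.1 FPKM in young controls 1 to 5, at 13.0, 10.8, 10.2, 13.5 and 37.2 FPKM in aged controls 1 to 5 and at 12.9, 7.35, 18.8, 16.3 and 10.6 FPKM in labelled knockouts 1 to 5. Aged control 5 was the highest of all 15 libraries for Ccnb1, and the labelled knockouts lay below all young controls. Foxm1, the factor that activates mitotic genes, differed by -0.62 with age (SE 0.33, limma adjusted p = 0.297). The mitotic kinases Aurka, Aurkb and Plk1 differed by -0.51, -0.58 and -0.45, and Bub1b of the spindle checkpoint by -0.77. The 2 genes for destruction of mitotic proteins, Cdc20 and the ubiquitin-conjugating enzyme gene Ube2c, differed least among mitotic genes, by -0.30 and -0.31.

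Spindle and chromosome genes completed the class. Nusap1, a microtubule-binding protein, was at 8.25, 3.76, 5.55, 3.51 and 4.54 FPKM in young controls 1 to 5, at 1.45, 0.92, 1.29, 3.0 and 5.59 FPKM in aged controls 1 to 5 and at 1.74, 5.11, 3.56, 3.98 and 3.55 FPKM in labelled knockouts 1 to 5. Aged controls 1 to 3 were the lowest libraries, followed by labelled knockout 1. Its difference with age was -0.93 (SE 0.30, limma adjusted p = 0.0898). Kif11, a spindle motor, and Tpx2, which activates Aurora A, differed by -0.68 and -0.65. Birc5, the survivin subunit of the chromosomal passenger complex, differed by -0.38 and Cenpa, the centromeric histone, by -0.36. Top2a, the topoisomerase that untangles chromosomes, differed by -0.73 (limma adjusted p = 0.0933).

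**Figure D3:**
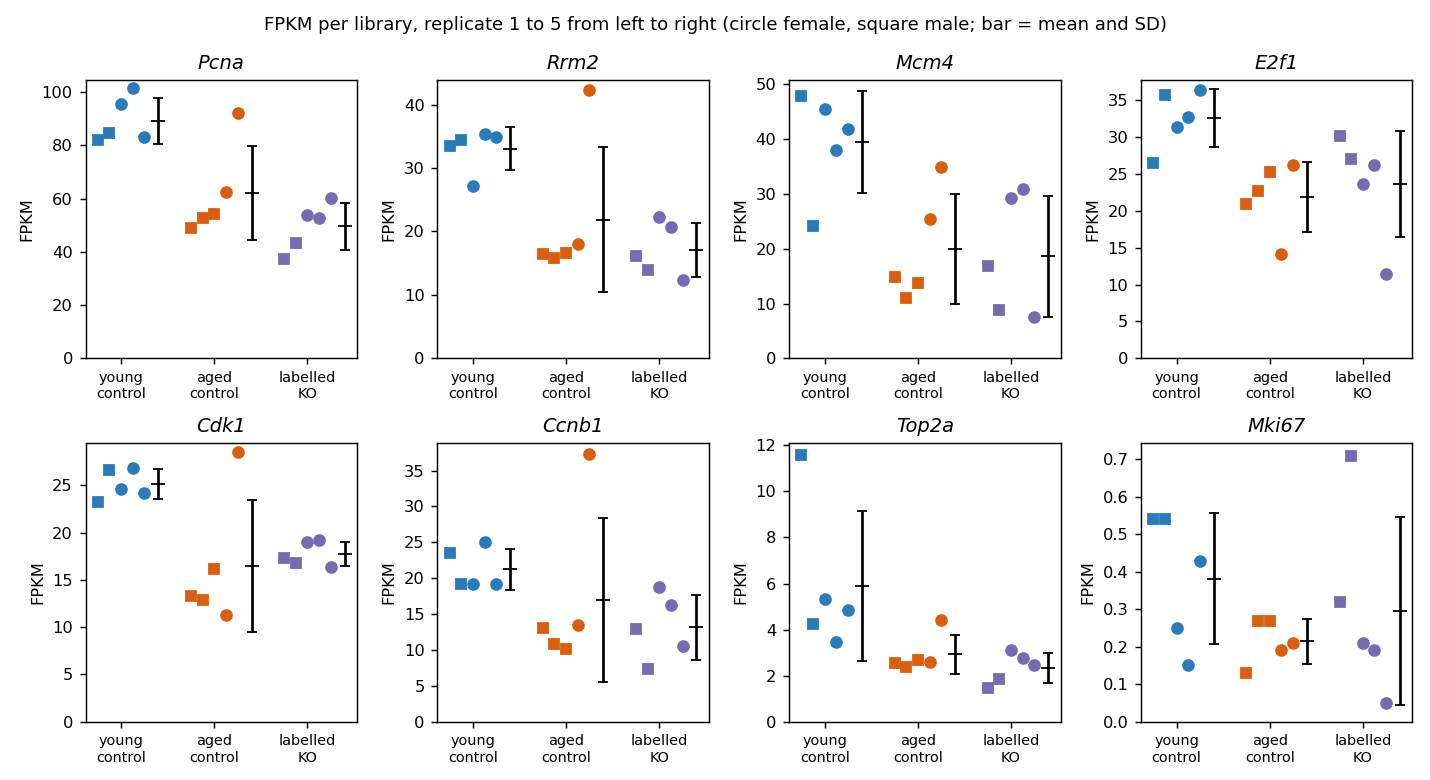
FPKM of 8 genes in each library, by group, with replicates 1 to 5 from left to right, circles for female and squares for male libraries, and bars for the group mean and SD (n = 5). In the panels of Rrm2, Cdk1 and Ccnb1, aged control 5 stands above all other aged controls and all young controls.

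The libraries labelled knockout were compared with the aged controls to ask whether the label went with a change at 18 months. None of the 32 tested genes passed the test (limma), none had an unadjusted p under 0.05 (8.31% of all tested genes as lower and 4.64% as higher), and none passed with voom on recovered reads, while 1.19% of all tested genes passed as lower and 0.361% as higher. The mean was lower for 25 of 32 genes, a direction shared by 54.6% of all tested genes. The medians were -0.16 for S-phase and -0.11 for mitotic genes, against -0.03 for all. These signs rested on single libraries: without aged control 5, 11 of 32 were lower and the medians were 0.00 and 0.09, and without labelled knockout 5 they were 0.07 and -0.01. Nusap1 had the highest difference, 0.52 (SE 0.30, limma adjusted p = 0.478), and lies 1.49 Mb from Thbs1 on chromosome 2 (GRCm38, 119618298 to 119651244). Bub1b lies 0.47 Mb from Thbs1 and differed by -0.25.

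Against the young controls, the libraries labelled knockout had lower means for all 32 tested genes, a direction shared by 57.3% of all, with medians of -0.69 for S-phase and -0.66 for mitotic genes. Both this comparison and that with age use the young controls, so they are not independent. Pcna (fell by 0.85, SE 0.16, limma adjusted p = 0.0107), Rrm2 (fell by 0.94, SE 0.23, adjusted p = 0.0404) and Top2a (fell by 0.97, SE 0.24, adjusted p = 0.0451) passed, where 0.617% of all tested genes passed as lower. Top2a was at 11.6, 4.25, 5.33, 3.48 and 4.84 FPKM in young controls 1 to 5, at 2.56, 2.39, 2.67, 2.61 and 4.43 FPKM in aged controls 1 to 5 and at 1.47, 1.85, 3.12, 2.76 and 2.46 FPKM in labelled knockouts 1 to 5. Young control 1 stood far above the rest, and all labelled knockouts lay below all young controls. Without young control 1, Top2a differed by -0.73 (limma adjusted p = 0.0967). Pcna passed whichever library was left out, with differences of -0.93 to -0.76.

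Rrm2 lost its call in 9 of the 15 cases and Top2a in 11. The count of 3 genes was 1 without young control 1, 2, 3 or 5, without aged control 1 and without labelled knockout 1, 2 or 5. In these settings 0.317% to 0.538% of all tested genes passed as lower, against 0.617% with all libraries. The count was 2 without young control 4 and without aged control 2, 3 or 4 (0.361% to 0.634% of all tested genes). It was 8 without aged control 5 (0.907% of all tested genes), 7 without labelled knockout 3 (1.55% of all tested genes) and 12 without labelled knockout 4 (2.56%). For 17 of 36 genes, all labelled knockouts lay below all young controls, a pattern held by 2.32% of all tested genes. These were Cdc45, Cdc6, Mcm2, Mcm3, Mcm7, Pcna, Rrm2 and Tyms of the S-phase class and Top2a, Ccna2, Ccnb1, Ccnb2, Cdk1, Aurka, Aurkb, Birc5 and Plk1 of the mitotic class. By library, labelled knockouts 1 to 5 had 27, 25, 27, 25 and 33 of 36 genes below every young control, against 31.5%, 42.7%, 16.7%, 17.9% and 39.9% of all tested genes. Labelled knockout 5 was the lowest of its group for 26 of 36 genes. It also had the highest myeloid marker sum of its group, 384 FPKM, of which Prtn3 alone made up 339 FPKM. Prtn3 was at 340 to 365 FPKM in aged controls 1 to 3. S100a8 (19.3 FPKM), S100a9 (20.1 FPKM), Elane and Ctsg were also the highest of the group. Mpo (1.77 FPKM) lay within the group, and Ngp and Fcnb were at 0. Labelled knockout 5 also had the raised share of ribosomal RNA given above. The part of these genes and of this share in the result was not tested.

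**Figure D4:**
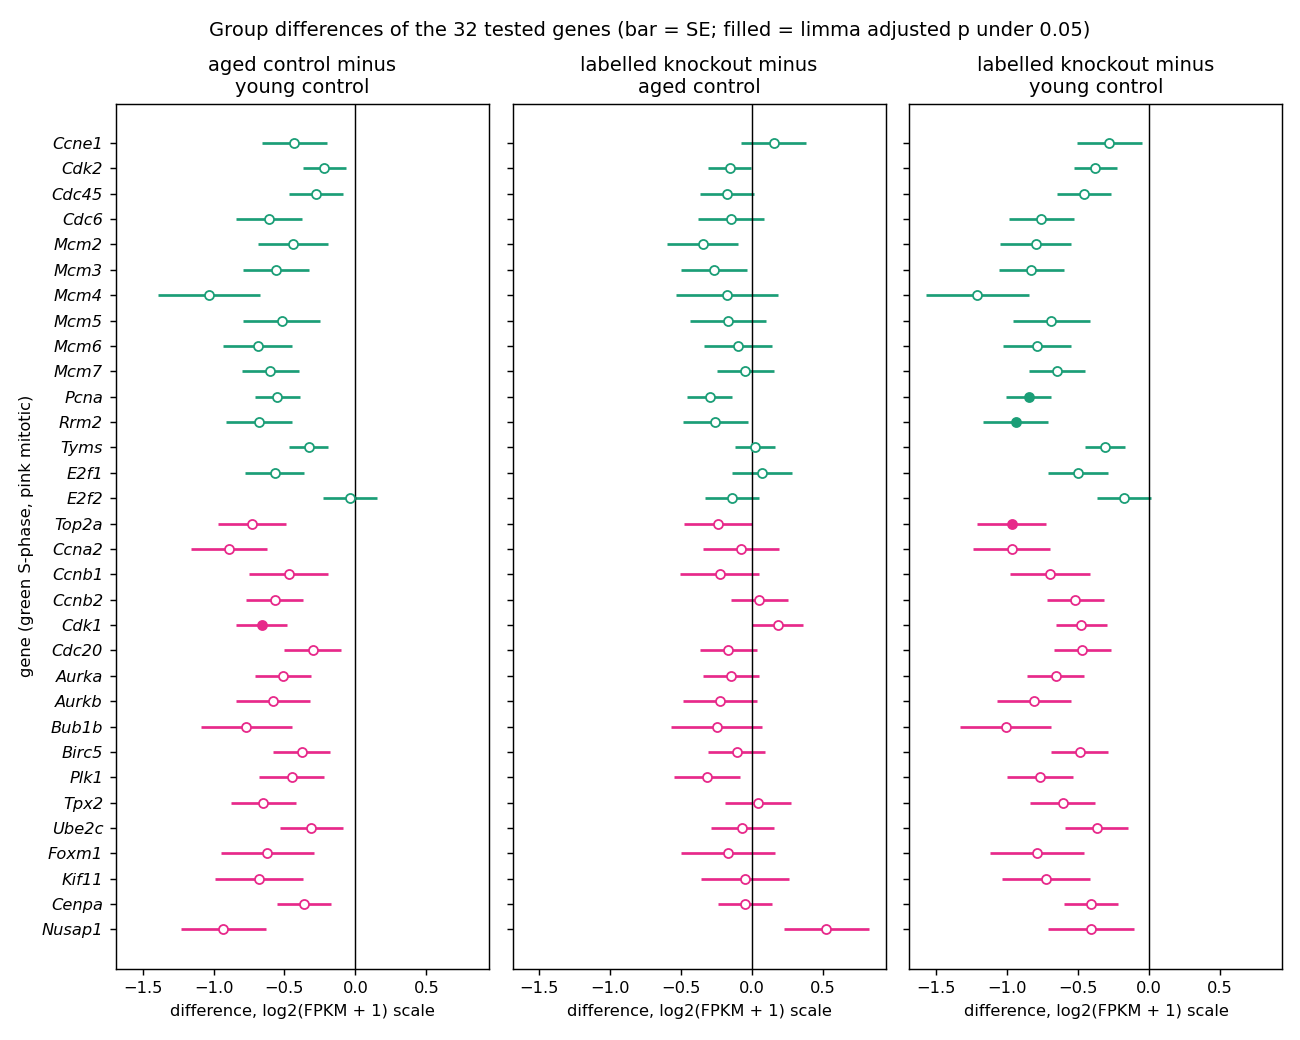
Differences between groups for the 32 tested genes on the log2(FPKM + 1) scale, with bars for the standard error, filled points for limma adjusted p under 0.05, and S-phase genes in green above mitotic genes in pink. The points lie left of 0 in the comparisons with young controls, where Cdk1 is filled for age and Pcna, Rrm2 and Top2a for the labelled knockout, and they scatter around 0 between the aged groups with no filled point.

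Differences between groups were of similar size in the S-phase and the mitotic class. The mean log2(FPKM + 1) level of the 16 S-phase genes was 4.95 ± 0.0661 in young controls, 4.45 ± 0.321 in aged controls and 4.34 ± 0.375 in labelled knockouts (SD, n = 5 each). That of the 20 mitotic genes was 3.67 ± 0.137, 3.14 ± 0.451 and 3.08 ± 0.239. The S-phase mean minus the mitotic mean was 1.28 ± 0.127, 1.31 ± 0.153 and 1.26 ± 0.187, so the groups differed in it by less than the spread between libraries. Single libraries stood apart in the balance. Labelled knockout 5 had the lowest S-phase mean of all libraries, 3.73, with 4.25 the next in its group, and a difference between classes of 1.01. Young control 1 and aged control 5 had the highest mitotic means, 3.90 and 3.94, and each had a difference between classes of 1.06, against 1.20 to 1.51 in the other 12 libraries.

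**Figure D5:**
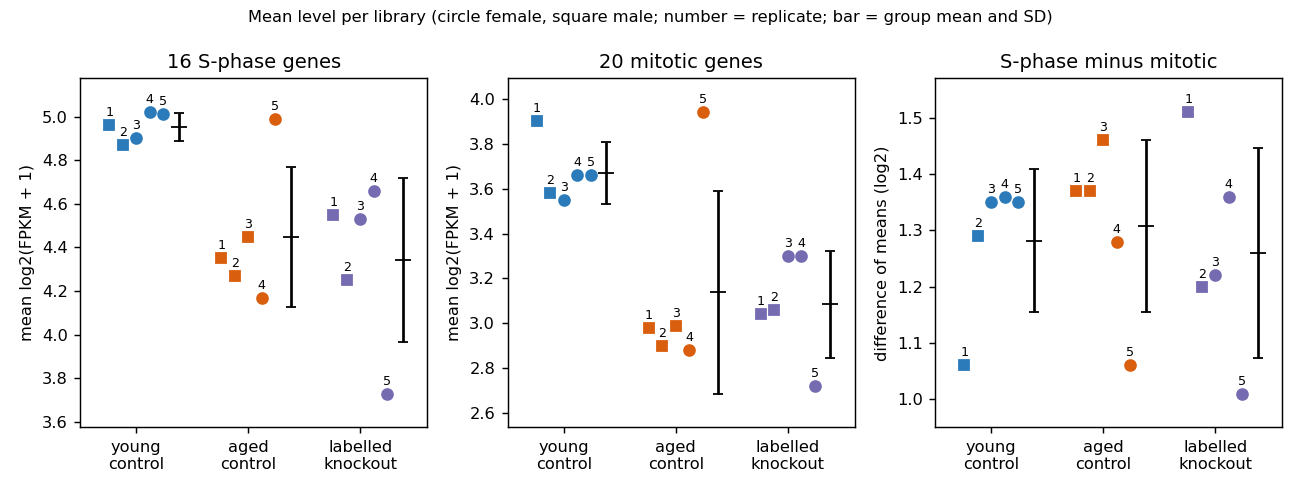
Mean log2(FPKM + 1) level of the 16 S-phase genes, of the 20 mitotic genes and their difference in each library, with replicate numbers beside the points, circles for female and squares for male libraries, and bars for the group mean and SD (n = 5). Aged control 5 lies at 4.99 and 3.94, near the young controls, while aged controls 1 to 4 lie between 4.17 and 4.45 and between 2.88 and 2.99.

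Library names give a sex, with 2 male and 3 female young controls, 3 and 2 aged controls, and 2 and 3 labelled knockouts. With group as a covariate, Pcna was the gene that passed, higher in female libraries by 0.38 (SE 0.10, limma adjusted p = 0.0244), where 9.67% of all tested genes passed as higher and 3.27% as lower. Without aged control 5 it differed by 0.29 (adjusted p = 0.0739) and without labelled knockout 1 by 0.35 (adjusted p = 0.0595), and neither passed. The count of passing genes was 3 without young control 1, where 1956 of all 11314 tested genes passed as higher. It was 4 without labelled knockout 5, where 1775 of all 11326 tested genes passed as higher. Among male libraries, Pcna, Rrm2, Top2a and Nusap1 passed as lower with age (3.72% of all tested genes), with medians of -0.56 for S-phase and -0.78 for mitotic genes. Among female libraries none passed (limma, 0.229% of all tested genes) and the medians were -0.47 and -0.23, with aged controls 4 and 5 as the 2 aged libraries. The change with age did not differ between the sexes past the threshold for any of the 32 genes (limma interaction, smallest adjusted p = 0.465 for Nusap1). This division by sex was chosen after seeing the data.

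Other genes of the same pathway were read from 3 lists. Of 51 tested genes among 55 further replication genes, 9 fell with age and none rose (1.23% of all tested genes as lower), with a median of -0.54 against -0.02 for all genes. They include Dscc1 of an alternative clamp loader (fell by 0.77, limma adjusted p = 0.00438), Tipin of the fork protection complex (fell by 0.99), the GINS subunit gene Gins1 (fell by 0.62) and the primase genes Prim1 and Prim2 (fell by 0.77 and 0.58). None of the 51 passed in the libraries labelled knockout against either group (medians 0.06 against aged and -0.44 against young controls). Dscc1 was at 3.55, 3.97, 4.18, 3.74 and 4.13 FPKM in young controls 1 to 5 and at 1.5, 1.73, 1.94, 1.47 and 3.02 FPKM in aged controls 1 to 5. The groups did not overlap, and the call held whichever of the 15 libraries was left out. The other calls were less stable: that of Gins1 ended in 6 of the 15 cases, that of Tipin in 7, that of Prim1 in 8 and that of Prim2 in 9.

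Of 58 tested genes among 76 further mitotic genes, 6 fell with age and none rose, against the same 1.23% as lower, with a median of -0.49 against -0.02 for all genes. Kif23, a motor of the cytokinetic bridge, fell by 0.81 (limma adjusted p = 0.0137), Stmn1, a microtubule destabiliser, by 0.58, the kinase gene Pbk by 0.92, Fbxo5, an inhibitor of the anaphase-promoting complex, by 0.90 and the kinetochore gene Cenph by 0.90. With a library left out, the calls with age ended in 1 of 15 cases for Kif23, 5 for Stmn1, 7 for Pbk, 7 for Fbxo5 and 8 for Cenph. Kif23 was also the single gene of the 58 that passed in the libraries labelled knockout against aged controls (0.361% of all tested genes as higher). It was at 1.02, 1.13, 0.82, 1.0 and 1.74 FPKM in aged controls 1 to 5 and at 2.5, 2.91, 2.39, 3.36 and 2.31 FPKM in labelled knockouts 1 to 5. These groups did not overlap, and the young controls, at 4.1, 1.74, 3.59, 1.92 and 2.78 FPKM, spanned the range of the labelled knockouts. Kif23 rose by 0.79 (SE 0.18, limma adjusted p = 0.0327), a call that ended in 8 of 15 cases when a library was left out, with adjusted p of up to 0.105 without aged control 3.

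Of 24 tested genes among 28 E2F, DREAM and inhibitor genes, 1 rose and 1 fell with age, against 3.18% of all tested genes as higher and 1.23% as lower, and none passed for the label. Cdkn1a encodes the inhibitor p21, which blocks cyclin-dependent kinases. It was at 4.17, 4.13, 3.23, 2.93 and 3.29 FPKM in young controls 1 to 5, at 6.16, 7.55, 7.81, 6.41 and 10.8 FPKM in aged controls 1 to 5 and at 4.94, 4.76, 3.75, 3.11 and 6.05 FPKM in labelled knockouts 1 to 5. Aged control 5 had the highest Cdkn1a level of all libraries, and every aged control lay above every other library. Cdkn1a rose with age by 0.93 (SE 0.17, limma adjusted p = 0.00308) and did not pass in the labelled knockouts against aged controls (difference -0.66, adjusted p = 0.0659). Wee1, the kinase that holds CDK1 inactive, fell with age by 0.62 (adjusted p = 0.0402). With a library left out, the call of Cdkn1a ended in 0 of 15 cases and that of Wee1 in 9. Between sexes, 6 of 51 further replication genes (Orc3, Orc5, Tipin, Slbp, Nasp and Pold3), 1 of 58 further mitotic genes (Fbxo5) and 3 of 24 regulator genes (E2f6, Rbl2 and Tfdp1) were higher in female libraries, while 9.67% of all tested genes passed as higher. With a library left out, the calls of Orc3, Tipin and E2f6 held throughout, and those of Nasp, Pold3 and Tfdp1 ended in 11 of 15 cases each.

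All these directions hold for groups by sample title. With groups by the library names in the sample descriptions, no proliferation gene passed with age, and neither did any other of the 11345 tested genes. The medians were then 0.16 for S-phase and 0.08 for mitotic genes, and Cdk1 differed by 0.27 (limma adjusted p = 0.976). By these names the young group held only male libraries and the labelled knockout group only female ones, so sex differs between these groups. Which of the 2 namings is right was not tested.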

How the data were processed

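HSC libraries of 3 groups were measured by RNA sequencing. The table the authors deposited holds FPKM values, rounded to 2 decimals, of 20696 genes in 15 libraries. Per the submitters' processing notes, FastQC 0.11.5, STAR and edgeR were used with build GRCm38 (mm10). Counting settings, strand use and annotation were not stated there, and overlapping genes may share reads. Gene lengths and positions came from GENCODE M21 (GRCm38). Library sizes were recovered from the steps of the FPKM values: at least 97.5% of values of held-out genes up to 500 bases came out within 0.1 of a whole read. Low genes such as Mki67 rest on few reads.

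Values were taken as log2(FPKM + 1), which understates changes of low genes. Genes averaging at least 1 FPKM, 11345 in number, were fitted with limma 3.58.1 in R 4.3.3, all 15 libraries in 1 fit, two-sided, with Benjamini-Hochberg adjusted p under 0.05 over all tested genes. The script was tested on simulated data. Groups follow sample titles. The comparison of sexes used group as a covariate.

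The genes and lists (S-phase, mitotic, further replication, further mitotic, and E2F, DREAM and inhibitor genes, and the markers) were chosen with earlier results of these data known. Named are all 36 genes, Thbs1, and up to 5 passing genes per further list and comparison. Gmnn, Ect2 and Pold3, which also passed, and genes of the marker lists are named outside this rule, after their values were seen.

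Replicate numbers were checked for pairing. Over 15 same-numbered pairs, deviations from the group means correlated between -0.46 and 0.53, and 6 pairs exceeded 0.1, so the numbers were not taken as pairs. Alternatives covered the pseudocount, filter, scaling, sex covariate, replicate block, naming of groups and left-out libraries. voom on recovered reads and fits within each sex were added after seeing the data. Marker genes Fgf7, Il7r, Camp, Pax5, Cd3e and Gzma were not analysed here, and some single genes are not reported here.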

Additional observations from a re-analysis of the deposited data

Results flagged for a closer look

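For 16 of the 36 genes, at least 1 library lay far from the other 4 of its group by Dixon's gap test at the 95% level. Chance alone meets this level in about 1 in 20 groups, and each gene was looked at in 3 groups. The share over all tested genes was not computed, so the count of 16 cannot be set against the whole table. Aged control 5 was the high library in 14 cases, 11 of them mitotic genes. It was far above the other aged controls for Aurka (29.4 FPKM), Aurkb (34.3), Birc5 (34.0), Bub1b (26.7), Ccna2 (25.9), Ccnb1 (37.2), Ccnb2 (76.9), Cdk1 (28.5), Cenpa (21.6), Top2a (4.43) and Tpx2 (13.5 FPKM). Among S-phase genes the same held for Cdc45 (34.9 FPKM), Mcm6 (150.6) and Rrm2 (42.3 FPKM). Young control 1 was far above the other young controls for Bub1 (1.13 FPKM), Kif11 (6.16) and Top2a (11.6 FPKM). Young control 3 was far below them for Aurkb (21.1 FPKM) and Rrm2 (27.2 FPKM).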

How the results depend on the processing

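Counts of proliferation genes that passed were low and moved with most settings. With age, 1 gene passed in the main setting, against 1.23% of all tested genes as lower, and brackets give this share for other settings. The count was 0 without a filter (0.58%), with equal medians (1.07%) and within female libraries (0.229%). It was also 0 with groups by the library names of the descriptions (0%). It was 2 with quantile normalization (1.6%) and with sex as a covariate (1.78%), and 4 within male libraries (3.72%). It was 10 without labelled knockouts 2 and 5 (3.51%) and 0 to 20 when a library was left out (0.599% to 3.28%). For labelled knockouts against young controls, 3 genes passed in the main setting (0.617%). The count was 1 without a filter (0.266%), without labelled knockouts 2 and 5 (0.39%), with voom (0.401%) and within female libraries (0.247%). It was 5 with sex as a covariate (1.81%), 0 by description names (0.0529%) and 1 to 12 when a library was left out (0.317% to 2.56%). Against aged controls it was 0 throughout (0% to 1.57%). Between sexes (1 gene) it was 0 with equal medians, where 656 of all 11345 tested genes passed as higher in female libraries and 593 as lower. It was 0 to 4 when a library was left out, where 412 to 1956 of all tested genes passed as higher. With the replicate number as a block, Pcna held (limma adjusted p = 0.00856) and the count against young controls was 1 (0.564%). Under the block, 1 gene passed with age (1.33%), Pcna in place of Cdk1 (adjusted p = 0.0588 for Cdk1). Within each group the male libraries have the lower numbers.

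Medians with a library left out ran from -0.66 to -0.44 (S-phase) and -0.81 to -0.46 (mitotic) with age, from -0.25 to 0.07 and -0.22 to 0.09 for labelled knockouts against aged controls, from -0.76 to -0.45 and -0.72 to -0.48 against young controls, and from -0.13 to 0.11 and -0.03 to 0.24 between sexes. Without labelled knockouts 2 and 5 the S-phase medians were 0.14 against aged and -0.32 against young controls, and the mitotic median with age was -0.23 within female libraries. By description names, the medians were 0.16 and 0.08 with age and -0.20 and -0.06 for labelled knockouts against young controls, and Thbs1 differed by 1.38 (exact permutation p = 0.0397), against 1.39 to 2.21 with a library left out. By the same names, differences with age turned for Cdk1 (0.27), Gmnn (0.40), Gins1 (0.22), Prim1 (0.57), Prim2 (0.28), Dscc1 (0.38), Tipin (0.66), Nasp (0.63), Cenph (0.72), Kif23 (0.53), Ect2 (0.09), Pbk (0.49), Stmn1 (0.37), Fbxo5 (0.45), Cdkn1a (-0.51) and Wee1 (0.18). That of Kif23 in labelled knockouts against aged controls also turned (-0.27), while that of Pcna against young controls vanished (0.00). Searching only the bases before the start gave a CHR share of 50% for mitotic promoters. For single named genes, 502 of the other values kept their call and 267 kept the direction without passing. The causes were not tested.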
